A study of Homo sapiens with 8 samples.

Results

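Keratin genes of the simple-epithelial and hair types were followed in EPC2-hTERT cells, an epithelial line of the human esophagus that was immortalised with the telomerase gene. The set was given by gene name and held 9 of the 25369 genes in the expression table: KRT7, KRT8, KRT18, KRT19 and KRT23 of the simple-epithelial type, and KRT31, KRT34, KRT81 and KRT86 of the hair type. These names were selected on the RPKM differences between the groups that earlier results of the same libraries showed. The levels below are therefore a description, and the adjusted p-values, read from a fit over all tested genes, do not support the choice of the set.

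The study compared a stable line carrying a lentiviral control hairpin RNA (shCtrl) with a stable line carrying a lentiviral hairpin against HIF1A (HIF1A-KD), the gene of the oxygen-regulated subunit of HIF-1. Each group had 4 RNA-seq libraries, numbered 1 to 4. Both lines were grown to confluence on membranes with 0.4 µm pores for 2 days, kept in 1.8 mM calcium chloride for 5 days and then exposed to air for 4 days, which lets squamous cells stratify. A vehicle and a hydroxylase inhibitor named in the labels are tied to no library, and the labels name no hairpin sequence and do not say whether libraries of a group came from separate cultures, so p-values measure only the spread between these libraries.

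Keratins form filaments as pairs of an acidic type I and a basic type II protein. KRT8 and KRT18 are the usual pair of single-layered epithelia, where KRT7, KRT19 and KRT23 are also found, while hair-type keratins are known from the hard, cysteine-rich filaments of hair and nail. Stratified esophageal epithelium is known for KRT5 and KRT14 in its basal layer and KRT4 and KRT13 above it. Of the 9 genes, KRT18, KRT19, KRT23, KRT31 and KRT34 are type I and KRT7, KRT8, KRT81 and KRT86 are type II.

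The libraries held 38068729 to 65326907 reads as implied by the deposited values, which are RPKM (reads scaled to gene length and library size). HIF1A averaged 89.7 ± 29.2 RPKM in the controls against 36.6 ± 16.3 RPKM in HIF1A-KD (SD, n = 4 each), lower in 4 of 4 pairs of equal number, although HIF1A-KD 3 lay above shCtrl 2. Its log2 change of −1.34 did not pass the unpaired fit (adjusted p = 0.319, limma). It passed a fit that also has library number as a blocking term (adjusted p = 0.0253, limma). All 10 squamous markers passed the filter on low values, with summed levels of 10400 to 15600 RPKM in the shCtrl libraries and 15400 to 17000 RPKM in HIF1A-KD. Of the 12 columnar markers found, 9 stayed below 1 RPKM in every library, and MUC2, MUC6, TFF2, TFF3 and CLDN18 were at 0 throughout. Led by MUC1 and AGR2, the columnar markers summed to 11.5 to 39.2 RPKM in shCtrl and 22.0 to 53.1 RPKM in HIF1A-KD. The 3 columnar markers that were tested all had estimates above 0, as did 6982 of all 11899 tested genes. Leukocyte markers summed to 33.9 to 118 RPKM in shCtrl and 25.5 to 87.5 RPKM in HIF1A-KD, with CD68 the most abundant and PTPRC and CD3E at 0. Endothelial markers, led by VWF, summed to 0.753 to 15.6 and 1.39 to 12.8 RPKM. Merkel or neuroendocrine markers, led by SOX2 with ATOH1 and INSM1 at 0, summed to 1.46 to 2.25 and 1.53 to 6.07 RPKM. SOX2 is also on the squamous list, and 7 of the 8 Merkel or neuroendocrine genes stayed below 1 RPKM in every library. Melanocyte markers, led by PMEL with MLANA and TYR at 0, summed to at most 1.95 RPKM. These 4 lists and the columnar list had 0 genes called in either fit, and their part in the keratin values was not tested. In both groups libraries 1 and 2 were separated from 3 and 4 by the leading principal component, with 41.9% of the variance, a split the labels do not explain.

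Among the simple-epithelial genes KRT19 was the most abundant, and its mean was 2.19-fold higher in HIF1A-KD. Among the hair-type genes KRT31 and KRT34 had means in HIF1A-KD at 25.6% and 21.9% of those in shCtrl. Of the 7 members tested, 0 passed the unpaired fit and these 2 passed the fit that also has library number as a blocking term (the paired fit). Pairing by number was taken from the data and not the labels. For numbers 3 and 4 it is uncertain, as are the counts of pairs that rest on it. KRT23 was lower in all 4 pairs without passing, the group means of KRT8, KRT18 and KRT7 differed by less than the SD of the shCtrl libraries, and KRT81 and KRT86 were too low to test.

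A total of 7 of the 9 members passed the filter of at least 0.5 RPKM in at least 4 libraries, and KRT81 and KRT86 did not. In the unpaired limma fit on log2(RPKM + 0.1) 0 of the 7 had an adjusted p under 0.05, where 0.042% of all 11899 tested genes were called (0.0252% higher and 0.0168% lower). At an unadjusted p under 0.05 there were 3 of the 7 (KRT19, KRT31 and KRT34) and 928 of the 11899. In the paired limma fit 2 of the 7 were called, both lower, where 1.83% of all tested genes were called (0.74% higher and 1.09% lower). Of the 7, 5 went the same way in 4 of 4 pairs, as did 29.3% of all tested genes, and 4 had an unpaired estimate of at least 2-fold, as did 4.77%. The choice of members used this contrast, so nothing is read from these shares. The median log2 change over the 7 was −0.32, against 0.06 over all tested genes. The authors' deposited table lists 8 of the members and gives 4 of them an adjusted p under 0.05, with log2 ratios of −1.69 for KRT31, −1.55 for KRT34, −1.02 for KRT23 and 1.03 for KRT19. Over all its genes the share under 0.05 is 9.02%. Of the 26 other keratins it lists, 5 are higher and 6 lower at that level. KRT10 (1.83) is among the higher, and KRT75 (−1.76), KRT37 (−1.43) and KRT33B (−1.11) are among the lower. These ratios carry a header that calls them adjusted, in a way no source used here describes, and were made from the same libraries.

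**Figure D1:**
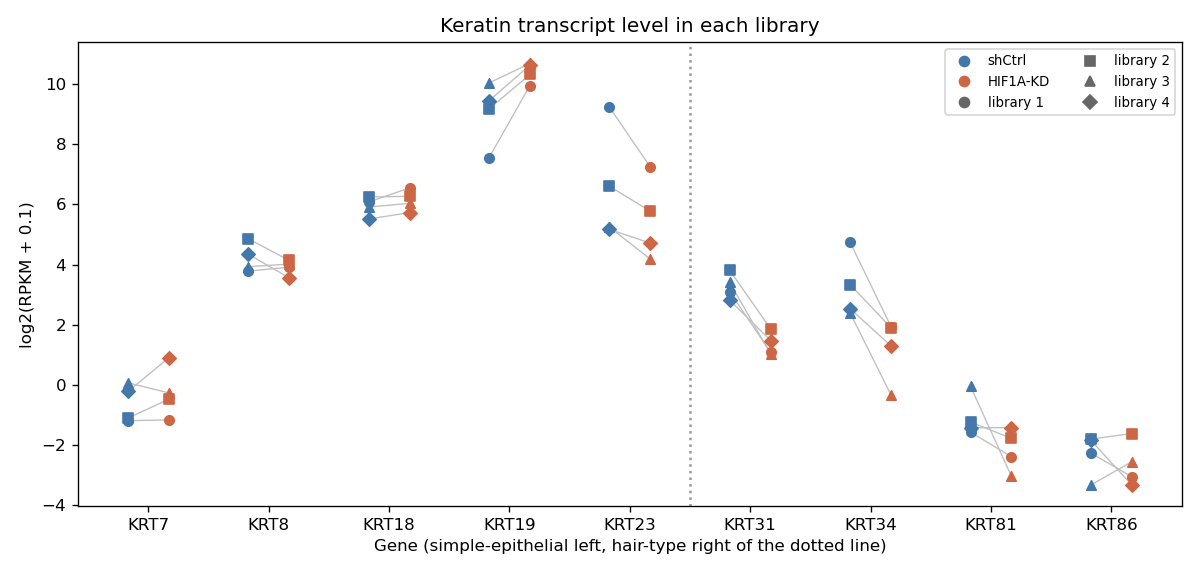
Level of each of the 9 keratins in every library, as log2(RPKM + 0.1); blue marks are shCtrl, orange marks HIF1A-KD, marker shapes give the library number and grey lines join libraries of equal number. KRT31 and KRT34 show no overlap between the groups, KRT19 is higher in HIF1A-KD in 4 of 4 pairs and KRT23 is lower in 4 of 4.

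KRT31 encodes a type I hair keratin of the hair shaft cortex. It held 8.46, 13.9, 10.5 and 6.96 RPKM in shCtrl 1 to 4 and 2.02, 3.54, 1.94 and 2.68 RPKM in HIF1A-KD 1 to 4. The lowest shCtrl library lay above the highest HIF1A-KD library. The means were 9.96 ± 3.01 and 2.55 ± 0.74 RPKM (SD, n = 4 each), a log2 change of −1.92. It did not pass the unpaired fit (SE 0.28, adjusted p = 0.0629, limma) and fell in the paired fit (SE 0.19, adjusted p = 0.0122, limma). Between 530 and 959 reads lay behind the shCtrl values and between 146 and 369 behind the HIF1A-KD values. The 4 pairs differed by −2.01, −1.94, −2.38 and −1.34 on the log2 scale, and a term for libraries 1 and 2 against 3 and 4 in place of the block gave an adjusted p of 0.0236 (limma). The change was −1.98 among libraries 1 and 2 and −1.86 among libraries 3 and 4. Leaving out 1 library of the paired fit also takes its partner of equal number out of the estimate. The 8 omissions therefore gave 4 distinct estimates. The paired call was lost when shCtrl 1 or 2 or HIF1A-KD 1 or 2 was left out, with adjusted p up to 0.142 (limma). The log2 change stayed between −2.11 and −1.77 over all omissions.

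KRT34 encodes a related type I hair keratin and lies next to KRT31. It held 26.7, 10.01, 5.16 and 5.69 RPKM in shCtrl 1 to 4 and 3.72, 3.64, 0.69 and 2.36 RPKM in HIF1A-KD 1 to 4. The groups did not overlap, although shCtrl 1 was well above the other shCtrl libraries. The means were 11.9 ± 10.1 and 2.60 ± 1.42 RPKM (SD, n = 4 each), and the shCtrl mean without shCtrl 1 was 6.95 ± 2.66 RPKM. The log2 change of −2.05 did not pass the unpaired fit (SE 0.63, adjusted p = 0.377, limma) and passed the paired fit (SE 0.31, adjusted p = 0.0373, limma). Leaving out any of shCtrl 1, 2 or 3 or HIF1A-KD 1, 2 or 3 ended the paired call, with adjusted p up to 0.179 (limma). Over all 8 omissions, which again gave 4 distinct estimates, the log2 change ran from −2.32 to −1.80. KRT31 and KRT34 were the 2 of the 7 tested members whose groups did not overlap, and 5.4% of all tested genes had groups that did not overlap (2.13% lower). Among the 19 other keratins tested, the groups of 3 did not overlap: KRT4 and KRT10, both higher in HIF1A-KD, and KRT75, which was lower.

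Levels of KRT31 and KRT34 were of the same order. The ratio of KRT34 to KRT31 ran from 0.49 to 3.15 in shCtrl and from 0.357 to 1.84 in HIF1A-KD, and it was highest in library 1 of both groups. Across the 8 libraries their log2 levels correlated at r = 0.76, a value over libraries that fall into 2 groups. Of the 7 fibroblast markers 1, COL1A1, passed the filter, with a log2 change of −0.61 that passed neither fit. The sum of the 7, nearly all of it COL1A1, ran from 21.2 to 27.7 RPKM in the shCtrl libraries and from 14.1 to 19.2 RPKM in HIF1A-KD, with 6 of the 7 genes below 1 RPKM in every library; their part in the hair keratin values was not tested. In bulk RNA, fewer cells with a transcript and less transcript per cell cannot be told apart.

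KRT31 (chromosome 17, 39549977 to 39553844, minus strand, hg19) and KRT34 (chromosome 17, 39533921 to 39538636, minus strand, hg19) are neighbours in the type I cluster. For these neighbours, both lower in HIF1A-KD, the 250 bases before each annotated start are shown 5′ to 3′. They are from RefSeq (GRCh38.p14, minus strand), at chr17:41397609-41397858 for KRT31 and chr17:41382307-41382556 for KRT34. Capitals mark runs of at least 10 bases found in both.
KRT31: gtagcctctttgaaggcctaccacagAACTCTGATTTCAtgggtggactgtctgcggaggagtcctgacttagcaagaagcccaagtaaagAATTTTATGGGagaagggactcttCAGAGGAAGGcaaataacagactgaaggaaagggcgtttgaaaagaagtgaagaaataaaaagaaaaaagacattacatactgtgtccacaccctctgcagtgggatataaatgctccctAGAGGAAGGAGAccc
KRT34: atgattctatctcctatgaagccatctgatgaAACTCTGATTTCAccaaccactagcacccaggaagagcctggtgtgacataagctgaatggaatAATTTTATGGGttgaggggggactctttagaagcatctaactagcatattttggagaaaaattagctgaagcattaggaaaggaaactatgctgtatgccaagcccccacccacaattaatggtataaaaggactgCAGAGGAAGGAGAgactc

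The 2 windows were identical at 57.3% of 267 aligned columns. Counting from −1 at the base before the start, the run AACTCTGATTTCA began at −224 in KRT31 and at −218 in KRT34, and the run AATTTTATGGG began at −159 and −154. Motifs were searched on both strands in the same window of 35116 RefSeq promoters. TATAAA lay at −29 in KRT31 and at −31 in KRT34 and was present in 10.7% of all promoters. TTTATGG, picked after the sequences were seen and a form of the sequence described for the hair homeobox factor HOXC13, lay inside the second shared run, at −156 and −151, and was present in 2.3% of all promoters. The HIF core letters ACGTG and GCGTG (18.5% and 32.2% of all promoters) and the AP-1 letters TGANTCA (6.6%) were not in either window, and CTTTGA, a LEF or TCF form (11.2%), was in that of KRT31 at −243. These matches describe letters and not binding. A promoter entry was matched for 3 of the 9 members, KRT8 being the third.

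HOXC13, named after its values were seen, averaged 1.69 ± 1.15 RPKM in the controls against 0.75 ± 0.59 RPKM in HIF1A-KD (SD, n = 4 each). It was lower in 4 of 4 pairs, with a log2 change of −1.29 that passed neither fit (adjusted p = 0.754 unpaired and 0.145 paired, limma). Of the 13 listed regulators and companions of hair keratin expression 9 were tested and 0 passed either fit, with 3 estimates above 0 and 6 below. The most abundant, FOXQ1 and DLX3, had log2 changes of −0.42 and −0.12. In the authors' deposited table FOXQ1 has an adjusted p under 0.05 (log2 ratio −0.47), while DLX3 (−0.18) and HOXC13 (−0.71) do not. Of 94 keratin-associated protein genes, whose products cross-link hair keratins, 71 were at 0 in every library, 3 were tested and 0 passed either fit.

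The rest of the hair family was low. Of the 13 hair-type keratins outside the set 0 passed the filter and 11 stayed below 1 RPKM in every library. The exceptions, KRT33B and KRT37, were named after their values were seen and flank KRT34 and KRT31. KRT37 held 9.92, 2.78, 0.53 and 0.353 RPKM in shCtrl 1 to 4 and 0.128, 0.339, 0 and 0.0612 RPKM in HIF1A-KD 1 to 4. KRT33B held 4.99, 0.677, 0 and 0.169 RPKM in the shCtrl libraries and 0.0546, 0.0857, 0 and 0 RPKM in HIF1A-KD. Both were highest in shCtrl 1, and KRT38, KRT32, KRT35 and KRT36, which follow in the cluster, held at most 0.204 RPKM.

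**Figure D2:**
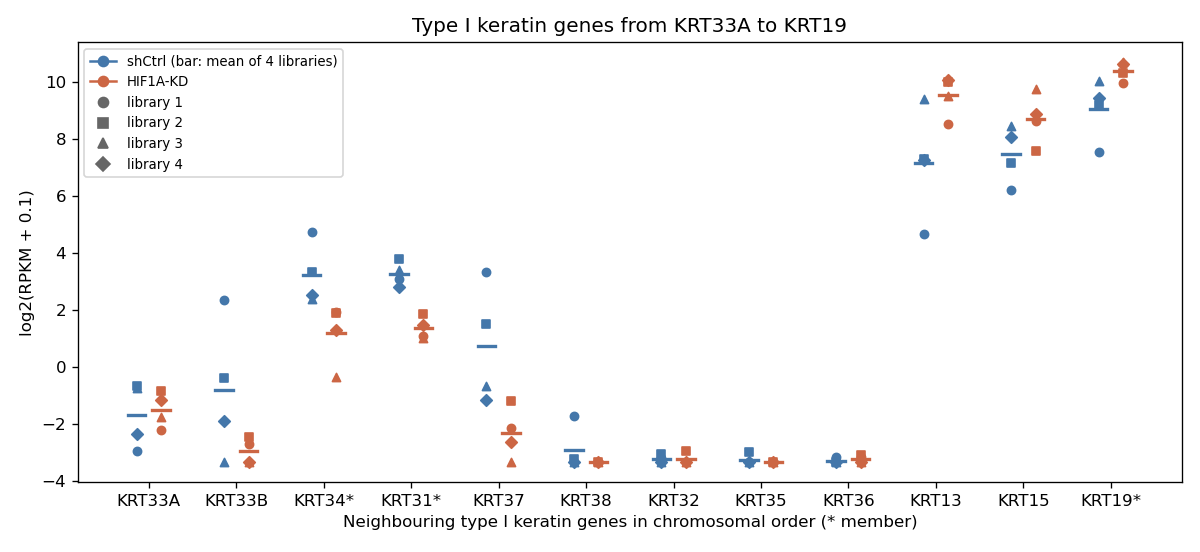
Levels of 12 neighbouring type I keratin genes in chromosomal order, as log2(RPKM + 0.1), for shCtrl (blue) and HIF1A-KD (orange); shapes give the library number, bars the mean of the 4 log2 values, and asterisks mark members of the set. KRT34 and KRT31 lie between KRT33B and KRT37, while KRT19 ends the stretch beside KRT13 and KRT15, at 188 to 1648 RPKM.

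KRT81 and KRT86 encode type II hair keratins and were near the limit of detection. KRT81 (chromosome 12, 52679697 to 52685299, minus strand, hg19) held 0.238, 0.327, 0.869 and 0.274 RPKM in the shCtrl libraries and 0.0918, 0.192, 0.0222 and 0.275 RPKM in HIF1A-KD, from 22, 27, 87 and 25 reads and from 8, 24, 2 and 20 reads. The groups overlapped, and shCtrl 3 stood above the other 7 libraries. KRT86 (chromosome 12, 52695649 to 52702947, plus strand, hg19) held 0.109, 0.188, 0 and 0.18 RPKM in the shCtrl libraries and 0.021, 0.227, 0.0709 and 0 RPKM in HIF1A-KD, from at most 31 reads. Its 0 in shCtrl 3 allows a level of up to 0.0274 RPKM and its 0 in HIF1A-KD 4 up to 0.0377 RPKM, at 3 reads each and for counting error only. Neither gene entered the unpaired or the paired fit, so no difference between the groups was assessed there. With no filter on low values 0 members were called in the unpaired fit. The authors' deposited table gives KRT81 a log2 ratio of −0.41 with an adjusted p that is not under 0.05. In GENCODE transcripts 37.6% of the 50-base words of KRT81 also occur in KRT86 and 30.8% of those of KRT86 in KRT81, so reads may have been split or lost between them. Of the words of KRT31 14.2% occur in other genes, KRT33B (8.3%) foremost, and of those of KRT34 11.4%.

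KRT19 (chromosome 17, 39679869 to 39684641, minus strand, hg19) encodes the smallest type I keratin, which lacks most of the tail domain. It held 188, 579, 1052 and 697 RPKM in shCtrl 1 to 4 and 992, 1279, 1648 and 1590 RPKM in HIF1A-KD 1 to 4. HIF1A-KD was higher in 4 of 4 pairs, and the groups overlapped only through shCtrl 3, which lay above HIF1A-KD 1. The means were 629 ± 356 and 1377 ± 304 RPKM (SD, n = 4 each), with a log2 change of 1.35 that passed neither fit (SE 0.47, adjusted p = 0.453 unpaired; SE 0.28, adjusted p = 0.0786 paired, limma). The pairs differed by 2.40, 1.14, 0.65 and 1.19 on the log2 scale. Among libraries 1 and 2 the change was 1.77, and among libraries 3 and 4 it was 0.92. Without shCtrl 1 the unpaired estimate was 0.85 (adjusted p = 0.518, limma). Of all tested genes 18.6% were higher in 4 of 4 pairs.

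KRT19 made up 0.40% to 2.57% of the RPKM summed over 55 keratin genes in shCtrl and 2.14% to 4.23% in HIF1A-KD. The 5 simple-epithelial genes together held 905 ± 178 RPKM in the shCtrl libraries and 1528 ± 230 RPKM in HIF1A-KD, and the 4 hair-type genes 22.4 ± 9.93 and 5.37 ± 2.02 RPKM (SD, n = 4 each). The sum over all keratins was 44960 ± 6313 and 43909 ± 6748 RPKM. The simple-epithelial sum was mostly KRT19 in each library other than shCtrl 1, where KRT23 was higher.

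KRT23 (chromosome 17, 39078948 to 39093895, minus strand, hg19) encodes a type I keratin that lies apart from the hair keratin stretch. It held 603, 97.1, 38.0 and 36.0 RPKM in shCtrl 1 to 4 and 152, 54.8, 18.1 and 26.2 RPKM in HIF1A-KD 1 to 4. It was lower in HIF1A-KD in 4 of 4 pairs, as were 10.7% of all tested genes, and the groups overlapped widely. The means were 194 ± 275 and 62.7 ± 61.4 RPKM (SD, n = 4 each). Without shCtrl 1 the shCtrl mean was 57.0 ± 34.7 RPKM, below that of the 4 HIF1A-KD libraries. The library of equal number, HIF1A-KD 1, was kept in that comparison and was also the highest of its group. The log2 change of KRT23 was −1.09 (adjusted p = 0.909 unpaired, SE 0.95, and adjusted p = 0.0902 paired, SE 0.24, limma). Without shCtrl 1 it was −0.19 in the unpaired fit and −0.78 in the paired fit (adjusted p = 0.178, paired limma). In that paired fit HIF1A-KD 1 adds nothing to the estimate either.

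KRT8 (chromosome 12, 53290971 to 53343650, minus strand, hg19) held 13.7, 28.98, 15.2 and 20.3 RPKM in the shCtrl libraries and 15.0, 17.5, 16.1 and 11.7 RPKM in HIF1A-KD. It was lower in 2 pairs and higher in 2, with a log2 change of −0.32 (SE 0.25, adjusted p = 0.875 unpaired and 0.400 paired, limma). Its partner KRT18 (chromosome 12, 53342655 to 53346685, plus strand, hg19) held 67.5, 76.1, 60.2 and 45.7 RPKM in the shCtrl libraries and 93.7, 77.2, 65.6 and 53.0 RPKM in HIF1A-KD. KRT18 was higher in 4 of 4 pairs by small amounts, with a log2 change of 0.21 (SE 0.23, adjusted p = 0.951 unpaired; SE 0.10, adjusted p = 0.324 paired, limma). Both genes had ranges that overlapped between the groups.

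KRT18 exceeded KRT8 in every library. The ratio of KRT18 to KRT8 was 4.93, 2.62, 3.96 and 2.25 in shCtrl 1 to 4 and 6.25, 4.40, 4.08 and 4.53 in HIF1A-KD 1 to 4, so it was higher in HIF1A-KD in each pair, with overlapping ranges. Their log2 levels correlated at r = 0.13 across the 8 libraries. The 2 genes lie head to head and overlap by 996 bases in the authors' coordinates, on opposite strands. In GENCODE 16.2% of the 50-base words of KRT18 occur in KRT8 transcripts on either strand, and 35.9% occur in some other gene, processed pseudogenes such as KRT18P11 among them. No source used here states whether reads were counted by strand, so this ratio is uncertain.

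**Figure D3:**
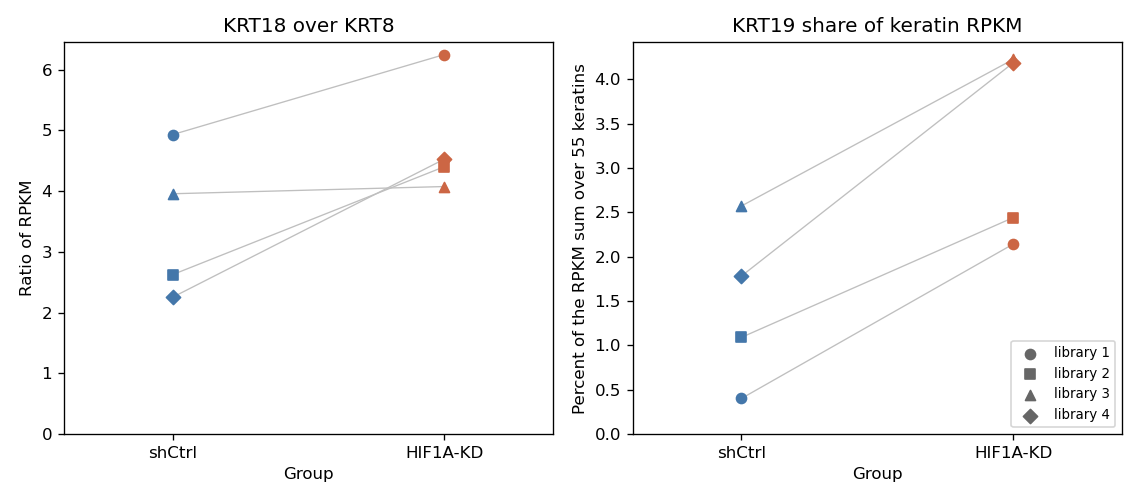
Left, ratio of KRT18 to KRT8 RPKM in each library; right, KRT19 as a percentage of the RPKM sum over 55 keratins; shapes give the library number and grey lines join libraries of equal number. The ratio runs from 2.25 to 4.93 in shCtrl and from 4.08 to 6.25 in HIF1A-KD, and the KRT19 share is higher in HIF1A-KD in each pair.

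KRT7 (chromosome 12, 52626954 to 52642709, plus strand, hg19) encodes a type II keratin of glandular and ductal epithelia. It held 0.34, 0.367, 0.953 and 0.762 RPKM in the shCtrl libraries and 0.348, 0.621, 0.734 and 1.77 RPKM in HIF1A-KD, from 27 to 115 reads a library. It was higher in 3 of 4 pairs, with a log2 change of 0.36 (SE 0.51, adjusted p = 0.974 unpaired and 0.606 paired, limma). Without HIF1A-KD 4 the change was −0.03 in the unpaired fit and 0.11 in the paired fit, where shCtrl 4 then adds nothing to the estimate. An antisense gene, KRT7-AS, shares 10.3% of its 50-base words.

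In shCtrl the members ranked from KRT19 (629 RPKM) through KRT23 (194), KRT18 (62.4), KRT8 (19.5), KRT34 (11.9), KRT31 (9.96), KRT7 (0.61) and KRT81 (0.43) to KRT86 (0.12), as mean RPKM. Neighbours in this order with ranges that did not overlap were KRT18 and KRT8, KRT31 and KRT7, and KRT81 and KRT86. The places of KRT23 and KRT34 rested on shCtrl 1: without it KRT23 averaged 57.0 against 60.7 RPKM for KRT18, and KRT34 6.95 against 10.5 RPKM for KRT31. KRT23 was above KRT18 in 2 of the 4 shCtrl libraries and KRT34 above KRT31 in 1. In HIF1A-KD KRT18 (72.4 RPKM) came before KRT23 (62.7 RPKM), with overlapping ranges, and the other genes kept their order. There the ranges of KRT18 and KRT23, of KRT34 and KRT31 and of KRT81 and KRT86 overlapped, and those of the other neighbours did not.

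Within each group several members also differed between libraries 1 and 2 and libraries 3 and 4. KRT23 was lower in libraries 3 and 4, by −2.71 on the log2 scale in shCtrl and −2.06 in HIF1A-KD. KRT34 differed by −1.58 and −1.44 and KRT18 by −0.45 and −0.53 in the same direction. KRT19 was higher in libraries 3 and 4, by 1.38 and 0.52, and KRT7 by 1.07 and 1.14. In these 5 genes the 2 pairs of libraries did not overlap within either group, while those of KRT31 (−0.34 and −0.22) and KRT8 (−0.18 and −0.24) did. For KRT23 this difference was larger than that between shCtrl and HIF1A-KD, and for KRT31 it was smaller. The split was not labelled, and these values were not tested.

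Over the 8 libraries the log2 levels of KRT19 ran against those of KRT34 (r = −0.91) and KRT23 (r = −0.87), and KRT23 and KRT34 ran together (r = 0.83). All 3 share the difference between the groups and the split between libraries. The tested gene most like KRT19 was CLCA4 (r = 0.988 over 8 libraries; mean 30.8 RPKM in the controls against 149 RPKM in HIF1A-KD), followed by SMAGP (0.986) and C1orf85 (0.985). KRT23 was most like ASPRV1 (0.988), a protease gene of the upper epidermis, then PFKFB2 (0.985) and GBA2 (0.982). For KRT31 the nearest were PLXNA3 (0.989), GNAS (0.970) and SRPX (0.970), and for KRT34 DPYSL2 (0.971), FOLR3 (0.967) and GDA (0.965). KRT8 was nearest to NIP7 (0.973), ANXA8L1 (0.945) and AKT1 (0.938), KRT18 to FUK (0.988), TRAPPC4 (0.976) and MAML1 (0.965), and KRT7 to KCMF1 (0.977), ATP5C1 (0.965) and CCDC66 (0.963). These are the highest of 11899 correlations over 8 points each and carry no test.

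Of the 46 other keratins 19 were tested, 0 passed the unpaired fit, while in the paired fit 1 was called higher and 1 lower. KRT10, an early suprabasal keratin, averaged 163 ± 39.2 RPKM in the controls against 898 ± 553 RPKM in HIF1A-KD (SD, n = 4 for either; adjusted p = 0.0432, paired limma). KRT75, a type II keratin of the hair follicle companion layer, averaged 35.6 ± 27.5 RPKM against 6.32 ± 1.91 RPKM (adjusted p = 0.0459, paired limma). KRT75 held 65.2, 52.8, 13.7 and 10.6 RPKM in shCtrl 1 to 4 and 8.12, 7.79, 4.99 and 4.38 RPKM in HIF1A-KD 1 to 4, without overlap. Both calls were lost from the paired fit when any of shCtrl 1 or 2 or HIF1A-KD 1 or 2 was left out. Each such omission takes the whole pair out of the estimate. The KRT75 call was also lost without shCtrl 3, HIF1A-KD 3 or HIF1A-KD 4 and with a pseudocount of 1, and with the term for the library split 0 other keratins were called higher and 2 lower. The log2 changes of the most abundant keratins, KRT17 (−0.42), KRT6A (−0.14), KRT5 (−0.06), KRT16 (0.28) and KRT14 (0.13), passed neither fit. Their means lay between 4163 and 15178 RPKM in shCtrl, so each exceeded the shCtrl mean of KRT19. The median log2 change over the 19 was 0.13.

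**Figure D4:**
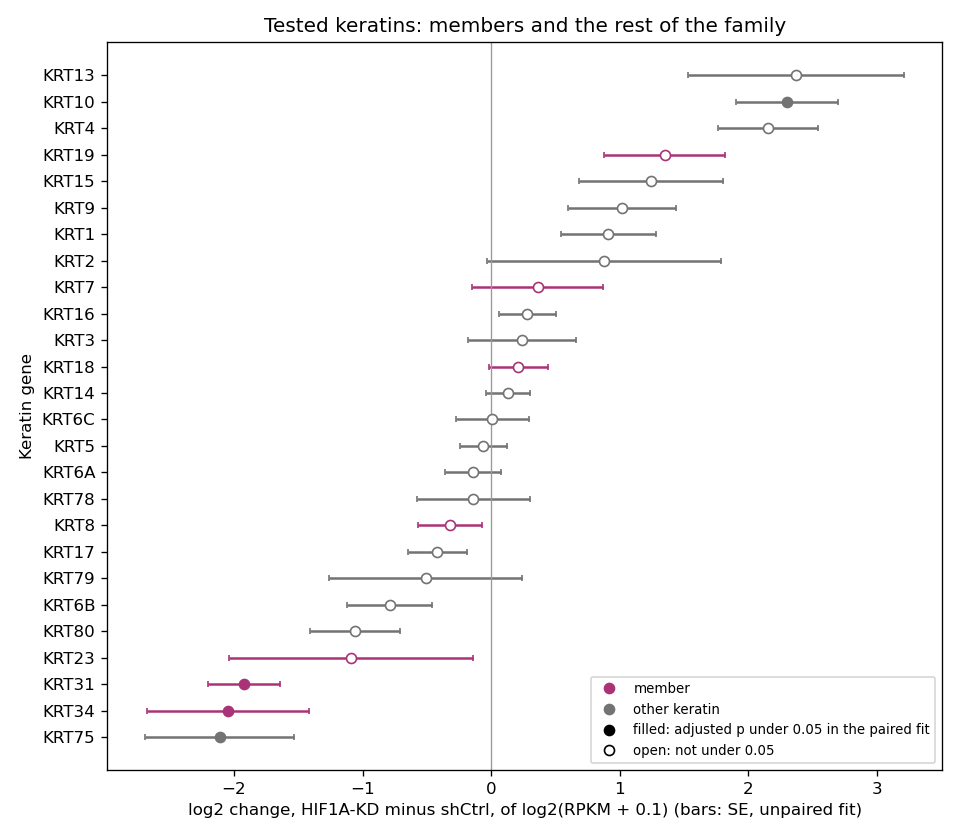
Log2 change (HIF1A-KD minus shCtrl, on log2(RPKM + 0.1)) of the 26 tested keratins, with bars for the SE of the unpaired fit; members are purple, other keratins grey, and filled marks had an adjusted p under 0.05 in the paired fit. KRT31 (−1.92) and KRT34 (−2.05) lie at the low end beside KRT75 (−2.11), and KRT19 (1.35) lies below KRT13, KRT10 and KRT4.

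Of 14 genes listed as keratin linkers 14 were tested and 0 passed either fit. The list also holds genes that carry only a keratin-associated name, such as KRTCAP2 and KRTCAP3. JUP (plakoglobin, log2 change 0.01) and PKP1 (plakophilin-1, log2 change −0.00) were the most abundant. EVPL, another of the 14 and named after its values were seen, has an adjusted p under 0.05 in the authors' deposited table (log2 ratio 0.53). Of 19 listed regulators of columnar epithelia 12 were tested and 0 passed either fit. KLF5 and GRHL3 were the most abundant, at log2 changes of 0.42 and 0.06. CDX2 and GATA4, regulators of intestinal and gastric epithelia, were at 0 in every library, and KRT20, the simple-epithelial keratin of the gut lining, was at 0 in all libraries other than shCtrl 1.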

How the data were processed

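RNA was sequenced from 4 shCtrl and 4 HIF1A-KD libraries made, per the labels' protocols, with a NEBNext Ultra kit. Per the submitters' processing notes the tools included HTSeq 0.6.1, Picard 1.129, SAMtools 1.3.1, Bowtie2 2.2.3.0 and TopHat2 2.0.13. The authors' deposited expression table holds RPKM, although it is named for raw counts. Its contig names are those of hg19, and reference sequences of another build were used only for promoters and transcript words. Values times gene length gave whole reads in 100% of nonzero values (tolerance 0.01 read), from which library totals were recovered; 597 genes had no readable length. The authors' second deposited table gives log2 ratios, which its header calls adjusted, and adjusted p-values. No source used here names the tool that made it.

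The 11899 genes that reached 0.5 RPKM in 4 or more libraries were fitted by limma 3.58.1 under R 4.3.3, with log2(RPKM + 0.1) as the response and trended, robust moderation, two-sided, adjusted over all tested genes by Benjamini and Hochberg and called under 0.05. Fold changes on this scale are understated for low genes. Libraries of the same number deviated together (r = 0.754, 0.730, 0.252 and 0.257 for numbers 1 to 4, all over 0.1), so the number was taken as pairing them, from the data and not the labels. For 3 and 4 this is uncertain, since the crossed combinations correlated more (0.463 for shCtrl 3 and HIF1A-KD 4, 0.613 for shCtrl 4 and HIF1A-KD 3). The paired fit has the number as a block, so leaving out 1 library also takes its partner of equal number out of the estimate.

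The members and gene lists were chosen with earlier results of these data known. Genes named were all members, HIF1A, keratins called in either fit, the 5 most abundant other keratins, called and the 2 most abundant genes of each context list, and the 3 genes most correlated with each tested member, leaving out names starting with LOC, LINC or MIR. Alternatives were other pseudocounts, filters and scaling, limma-voom on recovered reads, the library split and left-out libraries.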

Additional observations from a re-analysis of the deposited data

Results flagged for a closer look

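KRT23 stood at 603.3 RPKM in shCtrl 1, where its gap to the next shCtrl library was 0.892 of the range of the 4 libraries, above Dixon's critical value for 4 samples. KRT81 stood at 0.869 RPKM in shCtrl 3, from 87 reads, with a gap of 0.859 of the range. There were 18 such groups of 4 libraries, and chance flags about 1 in 20.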

How the results depend on the processing

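The count of all genes called was 5 in the unpaired fit and 218 with the library number as a replicate block. It was 3 with a pseudocount of 1 or of 0.01, 1 without a filter, 8 under median-of-ratios scaling, 3 with limma-voom, 102 with a term for libraries 1 and 2 against 3 and 4, 0 in libraries 1 and 2 alone, 5 in libraries 3 and 4 alone, and 0 to 3 with each library left out. Paired, it was 255 under median-of-ratios scaling, 335 with limma-voom, 231 and 186 with a pseudocount of 1 and 0.01, and 1 to 239 with each library left out (20, 5, 213 and 239 without shCtrl 1 to 4, and 33, 1, 204 and 180 without HIF1A-KD 1 to 4). Members called were 0 unpaired, 1 (KRT31) with the split term, 2 paired under each of these scalings, pseudocounts and voom, and 0 to 2 with each library left out of the paired fit. Other keratins called were 0 unpaired and 2 paired, 2 with the split term, 2 (scaling), 4 (voom), 1 (pseudocount 1) and 2 (pseudocount 0.01) paired, and 0 to 2 with libraries left out. In the unpaired fit the log2 change of KRT7 changed sign, to −0.03, without HIF1A-KD 4, and reached 0.66 without HIF1A-KD 1. In the paired fit it was 0.11 without HIF1A-KD 4 and 0.47 without HIF1A-KD 1. The cause was not tested. The other 6 tested members kept their direction in every setting. The paired settings that leave out a library, or change scaling, test or pseudocount, were added after the data were seen. Leaving out either library of a pair gave the same paired estimate. Depth limited KRT81 and KRT86, at no more than 87 reads a library.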
